A study of Bos taurus with 12 samples.

Results

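Genes of hepatic glycolysis and fructose use were followed in the liver of newborn Holstein heifer calves: SLC2A2, HK1, GCKR, PFKL, PFKFB1, KHK, TKFC and PKLR. They were taken from a list of gene symbols and matched by Entrez gene ID, 8 of the 30336 gene IDs in the count files, and all 8 passed the filter on low counts. Liver was taken by puncture biopsy at 4 d of age from 6 calves of dams on a control diet (CON; 1.47 Mcal/kg of dry matter and 15.3% crude protein) and from 6 calves of dams on the same diet with ethyl-cellulose rumen-protected methionine over the last 28 d of gestation (MET). All calves were heifers that received colostrum and milk replacer and were reared alike, and they were a subset of a larger cohort. Stranded libraries of mRNA were sequenced, and expression is given as CPM, the reads on a gene scaled to a common library total after the TMM normalization of edgeR.

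The liver takes up hexoses by facilitated diffusion and phosphorylates them, which holds them in the cell. Glucose then enters glycolysis, where phosphofructokinase and pyruvate kinase are the controlled steps, while fructose enters below phosphofructokinase through its own kinase. In the newborn ruminant, milk lactose is the main source of sugar and the liver also has to make glucose, so that the same tissue holds both the enzymes that break sugar down and those that make it.

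Counted reads ranged from 8277789 to 10397604 per library, and 3 reads, the floor used here, correspond to 0.289 to 0.362 CPM, which covers counting error only. Counting noise accounted for nearly all of the difference between the libraries of CON replicates 1 and 4 (chi-square per gene of 1.31) and between those of MET replicates 1 and 3 (1.23), against 23.3 to 122.2 in the other 64 pairs of libraries, although the labels give them separate animals. Either pair therefore entered as 1 sample. Each diet thus has 5 samples for its mean and SD, in which a pair contributes its average CPM, and for the 8 genes each edgeR test over the 12 libraries is followed by the same test over 10 samples with the reads of a pair summed. Tests of other genes are over the 12 libraries unless stated, and so count both libraries of a pair. Diet and first sequencing index cannot be told apart, because each diet had an index of its own. The tissue was checked by markers. The 8 hepatocyte genes together had 96480 to 143956 CPM in CON and 80216 to 116070 CPM in MET, and 3 of 4 skeletal muscle genes (ACTA1, MYH2, CKM) had no read in any library.

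Diet differences were tested with the quasi-likelihood test of edgeR, with Benjamini-Hochberg adjusted p for the 13212 genes that passed the filter, and called at FDR at most 0.10. None of the 8 genes was called over the 12 libraries, where 583 genes (4.41%) were, 276 (2.09%) of them greater and 307 (2.32%) lower in MET, or 71 greater and 36 lower when scaled by library size only. Over the 10 samples 0 genes (0.0%) were called. At an unadjusted p of at most 0.05, SLC2A2 and HK1 had lower and GCKR greater expression in MET, and the other 5 genes were not past it. That is 3 of 8 genes, where 20.5% of all genes tested had such a p over the 12 libraries and 16.3% over the 10 samples. By DESeq2, FDR was at most 0.10 for SLC2A2 and GCKR, both over the 12 libraries (1314 genes or 9.95% of all tested) and over the 10 samples (639 genes or 4.83%). The MET and CON samples overlapped in every one of the 8 genes, whereas 3.71% of all genes tested had no overlap. The median log2 fold change of MET against CON was 0.028 over the 8 genes and −0.0031 over all genes, with 4 of the 8 positive and 4 negative.

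**Figure D1:**
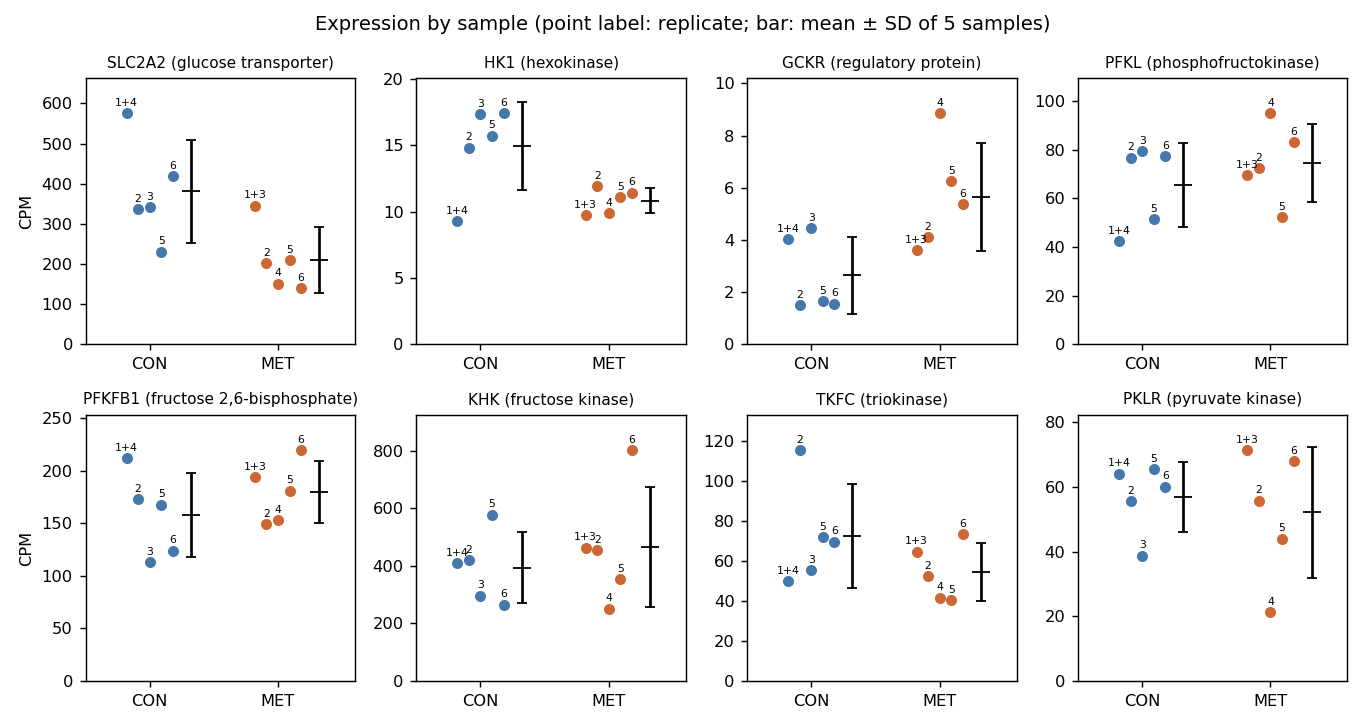
CPM (vertical axis, from 0) of the 8 genes in the 5 CON and 5 MET samples, each point labelled with its replicate number, with mean ± SD as a bar. SLC2A2 and HK1 lie lower and GCKR higher in most MET samples, and the diets overlap in all 8 genes.

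SLC2A2 encodes GLUT2, the low-affinity transporter through which hepatocytes exchange glucose and fructose with the blood in both directions. The gene (Entrez gene 282357) lies on chromosome 1 from 97220035 to 97252900 on the plus strand of UMD 3.1.1, with 5442 exonic bases. In CON, SLC2A2 stood at 576 CPM in the sample of replicates 1 and 4, 338 in replicate 2, 341 in replicate 3, 231 in replicate 5 and 418 in replicate 6. In MET, it stood at 345 CPM in the sample of replicates 1 and 3, 203 in replicate 2, 151 in replicate 4, 209 in replicate 5 and 139 in replicate 6. Thus 4 MET samples were below every CON sample, and the remaining one (replicates 1 and 3) was above 3 of the 5. Means were 381 ± 128 CPM for CON and 209 ± 82.0 CPM for MET (SD, n = 5 each), a ratio of 0.550. The log2 fold change of SLC2A2 was −0.83 (standard error 0.27, 95% interval −1.42 to −0.25) over the 12 libraries (unadjusted p = 0.00877, adjusted p = 0.123 by edgeR), and −0.86 (adjusted p = 0.195) over the 10 samples. With DESeq2 the adjusted p was 0.0465 with 12 libraries and 0.0652 with 10 samples. Without CON replicate 5, the lowest CON sample, the quasi-likelihood test gave a log2 fold change of −0.95 and an adjusted p of 0.0956. With both near-identical pairs left out, SLC2A2 had −0.92 (adjusted p = 0.163). Of the 8 hepatocyte genes, 6 had a negative and 2 a positive log2 fold change, from −0.65 for ALB (edgeR, adjusted p = 0.107) to 0.068 for TTR (adjusted p = 0.907), and APOB alone was called over the 12 libraries, at −0.38. ASGR1 had 0.029 (adjusted p = 0.934) and SERPINA1 −0.13 (adjusted p = 0.788). The summed hepatocyte genes had a median of 140980 CPM in CON and 91880 CPM in MET, and ALB and TF made up most of that sum in every sample. Their part in the SLC2A2 value was not tested. In whole tissue, fewer hepatocytes and less transcript per hepatocyte cannot be told apart.

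Other hexose transporters were much less abundant than SLC2A2. Per length of exon, as TPM, the share of length-scaled reads computed from the counts, SLC2A2 had 97.7 ± 46.0 TPM (SD, n = 10), SLC2A1 7.43 ± 2.25 TPM and SLC2A8 7.45 ± 2.74 TPM, while SLC2A5, the fructose transporter of the intestine, reached at most 0.260 TPM in a sample. SLC2A1 encodes the widely expressed GLUT1 and SLC2A8 an intracellular transporter. SLC2A2 held 86.4 to 93.6% of the summed TPM of these 4 genes in CON samples and 70.4 to 86.7% in MET samples. The log2 fold changes of SLC2A1 (0.32, adjusted p = 0.462) and SLC2A8 (0.55, adjusted p = 0.189 by edgeR) were positive, and neither was past the threshold.

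HK1, a hexokinase of high affinity for glucose that is typical of red cells, brain and non-parenchymal cells, is encoded on chromosome 28 from 25851519 to 25925057 (Entrez gene 280817, plus strand, 3693 exonic bases). Its exons share 161 bases with TACR2 on the opposite strand, and counting was stranded. Reads for HK1 numbered 76 to 168 per library. The CON samples had 9.30 CPM (replicates 1 and 4), 14.8 (replicate 2), 17.4 (replicate 3), 15.7 (replicate 5) and 17.4 (replicate 6). The MET samples had 9.74 CPM (replicates 1 and 3), 11.9 (replicate 2), 9.90 (replicate 4), 11.1 (replicate 5) and 11.4 (replicate 6). Thus 4 CON samples lay above every MET sample, and the CON sample of replicates 1 and 4 lay below every MET sample. HK1 averaged 14.9 ± 3.34 CPM for CON and 10.8 ± 0.955 CPM for MET (SD, n = 5 each), with a coefficient of variation of 22.4% in CON and 8.83% in MET, where counting error alone gives 9.49% at the median count. The log2 fold change was −0.40 (standard error 0.17, 95% interval −0.77 to −0.026, unadjusted p = 0.0376, adjusted p = 0.216 by edgeR) over the 12 libraries and −0.46 (adjusted p = 0.228) over the 10 samples. With both near-identical pairs left out it was −0.56 (adjusted p = 0.163). DESeq2 gave HK1 an adjusted p of 0.197 over the 12 libraries. The unadjusted p of HK1 was above 0.05 with library size only (0.0784), limma voom (0.0729), the gene length correction (0.0577) and the replicate block (0.0578), while those of SLC2A2 and GCKR were below 0.05 under these 4 settings.

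HK1 is also a transcript of red cells and non-parenchymal cells, so markers of these cells were read beside it. Of the 7 erythroid genes only ALAS2 passed the filter, and none was at 0 in all libraries. The erythroid sum ran from 1.40 to 24.8 CPM in CON and from 2.91 to 23.5 CPM in MET. The 5 Kupffer cell genes summed to 664 to 937 CPM in CON and 748 to 1111 CPM in MET, and none had FDR at most 0.10. Each of these 5 had a positive log2 fold change, opposite to HK1. They ran from 0.098 for MARCO (edgeR, adjusted p = 0.759) to 0.39 for CD68 (adjusted p = 0.106). The 5 stellate cell and fibroblast genes summed to 561 to 863 CPM in CON and 430 to 711 CPM in MET. All 5 had a negative log2 fold change, as HK1 did, from −0.19 for DCN (edgeR, adjusted p = 0.325) to −0.70 for LUM, which alone was called (adjusted p = 0.0985). The 5 endothelial genes summed to 175 to 319 CPM in CON and 161 to 278 CPM in MET, with 3 negative and 2 positive log2 fold changes and none called. The part of these cells in the HK1 values was not tested.

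Within the hexokinases measured here, HK1 was the most abundant per length, at 6.29 ± 1.90 TPM (SD, n = 10), followed by HK3 at 4.61 ± 1.86 TPM, HKDC1 at 2.21 ± 1.21 TPM and HK2 at 0.306 ± 0.168 TPM. HK3 is the hexokinase of white blood cells, HKDC1 a hexokinase-like protein and HK2 the insulin-responsive hexokinase of muscle and fat, which did not pass the filter. The ranges of HK1 (4.39 to 9.37 TPM) and HK3 (2.49 to 7.51 TPM) overlapped, so the order of these neighbours does not hold beyond their spread. HK3 had a log2 fold change of 0.36 (adjusted p = 0.444) and HKDC1 of −0.60 (adjusted p = 0.310) by edgeR over the 12 libraries.

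GCKR encodes a regulatory protein that restrains hepatic glucose phosphorylation, with fructose 6-phosphate strengthening and fructose 1-phosphate releasing the restraint. It is located on chromosome 11 from 72147371 to 72176496, on the minus strand (Entrez gene 100140421, 4730 exonic bases). GCKR was the least expressed of the 8 genes, with 12 to 77 reads per library. The CON samples held 4.02 CPM (replicates 1 and 4), 1.51 (replicate 2), 4.46 (replicate 3), 1.67 (replicate 5) and 1.56 (replicate 6), and so fell into a higher pair and a lower group of 3. The MET samples held 3.61 CPM (replicates 1 and 3), 4.10 (replicate 2), 8.86 (replicate 4), 6.27 (replicate 5) and 5.36 (replicate 6). In all, 3 MET samples were above every CON sample and 3 CON samples were below every MET sample. Mean GCKR expression was 2.64 ± 1.47 CPM for CON and 5.64 ± 2.08 CPM for MET (SD, n = 5 each), 2.13 times as much. The log2 fold change of GCKR was 0.87 (standard error 0.33, 95% interval 0.16 to 1.59, unadjusted p = 0.0196, adjusted p = 0.165 by edgeR) over the 12 libraries and 1.05 (adjusted p = 0.213) over the 10 samples. With DESeq2 the adjusted p was 0.0969 with 12 libraries and 0.0926 with 10 samples. With both near-identical pairs left out, the log2 fold change was 1.41 (adjusted p = 0.190), the largest GCKR value of the alternatives run. The smallest was 0.67 (edgeR, adjusted p = 0.277), without MET replicate 4, the highest GCKR sample. At its median of 38.5 reads, counting error alone gives a coefficient of variation of 16.1%, against 55.6% observed in CON and 36.9% in MET.

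**Figure D2:**
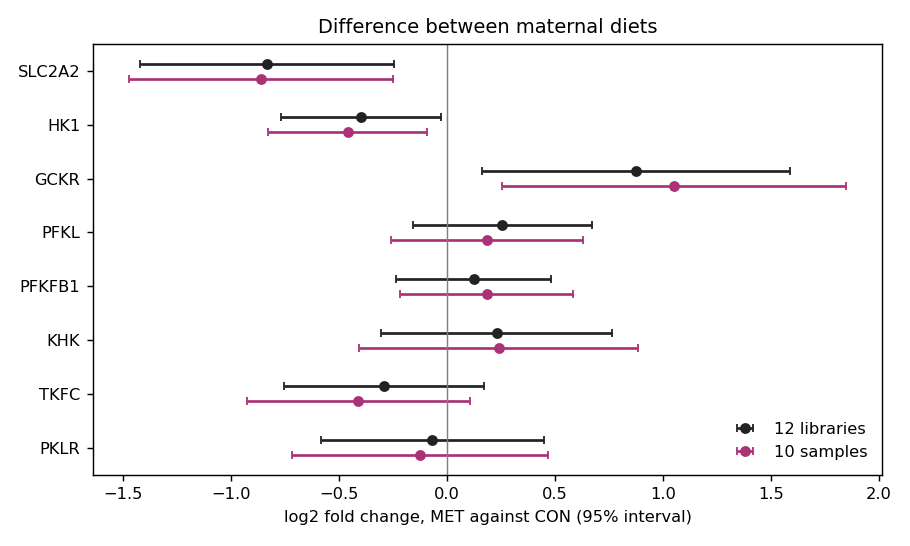
Log2 fold change of MET against CON (horizontal axis) with 95% intervals for the 8 genes, over 12 libraries (black) and over 10 samples (purple), by edgeR. The intervals of SLC2A2, HK1 and GCKR lie on one side of 0 and those of the other 5 genes include 0, before adjustment for the number of genes tested.

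The phosphofructokinase step is represented by PFKL, the liver-type subunit of the enzyme that commits fructose 6-phosphate to glycolysis, and by PFKFB1, the liver-type bifunctional enzyme that makes and removes fructose 2,6-bisphosphate, the activator of phosphofructokinase. PFKL (Entrez gene 508683) lies on chromosome 1 from 145770058 to 145797206 and PFKFB1 (Entrez gene 282304) on chromosome X from 97738489 to 97894926. For PFKL, CON samples had 42.5 CPM in replicates 1 and 4, 76.8 in replicate 2, 79.4 in replicate 3, 51.6 in replicate 5 and 77.4 in replicate 6. For PFKL in MET, values were 69.6 CPM in replicates 1 and 3, 72.3 in replicate 2, 95.1 in replicate 4, 52.1 in replicate 5 and 83.1 in replicate 6. The PFKL samples of both diets were spread over the same range, apart from 2 MET samples above and 2 CON samples below the other diet. Its means were 65.5 ± 17.2 CPM for CON and 74.5 ± 16.0 CPM for MET (SD, n = 5 each). The log2 fold change of PFKL was 0.26 (standard error 0.19, 95% interval −0.16 to 0.67, adjusted p = 0.476 by edgeR) over the 12 libraries and 0.19 (adjusted p = 0.690) over the 10 samples. With each library left out it ran from 0.17 (without CON replicate 1) to 0.34 (without CON replicate 3). It was 0.17 without MET replicate 4 and 0.086 with both near-identical pairs left out.

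PFKFB1 was the most even of the 8 genes across the calves apart from HK1, with the highest sample 1.95 times the lowest. CON samples had 212 CPM in replicates 1 and 4, 173 in replicate 2, 113 in replicate 3, 168 in replicate 5 and 124 in replicate 6. MET samples had 194 CPM in replicates 1 and 3, 149 in replicate 2, 153 in replicate 4, 181 in replicate 5 and 220 in replicate 6. CON replicates 3 and 6 were the lowest of all and MET replicate 6 the highest. PFKFB1 averaged 158 ± 39.99 CPM for CON and 179 ± 29.4 CPM for MET (SD, n = 5 each), with a log2 fold change of 0.12 (standard error 0.17, 95% interval −0.23 to 0.48, adjusted p = 0.713 by edgeR) over the 12 libraries and 0.18 (adjusted p = 0.658) over the 10 samples. The 95% interval of PFKFB1 over the 10 samples was wider, from −0.22 to 0.58. Single libraries moved this small value, to 0.033 without CON replicate 3, 0.051 without CON replicate 6, 0.058 without MET replicate 6, 0.19 without CON replicate 4 and 0.21 without CON replicate 1, and it was 0.28 with both near-identical pairs left out.

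In both families the liver-type gene predominated per length. PFKL had 44.7 ± 10.9 TPM (SD, n = 10), against 8.48 ± 2.45 TPM for the platelet type PFKP and 6.96 ± 1.74 TPM for the muscle type PFKM, and held 64.7 to 86.4% of the sum of the 3. PFKFB1 had 118 ± 20.5 TPM (SD, n = 10) and 87.0 to 96.3% of the sum of the 4 PFKFB genes, of which PFKFB3 had 4.60 ± 1.72 TPM, PFKFB2 3.20 ± 1.20 TPM and PFKFB4 2.29 ± 0.523 TPM. No range of another member of these families reached that of PFKL or PFKFB1. Diet differences in PFKM, PFKP, PFKFB2, PFKFB3 and PFKFB4 were between −0.41 and 0.26 on the log2 scale, with adjusted p between 0.320 and 0.840 (edgeR).

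**Figure D3:**
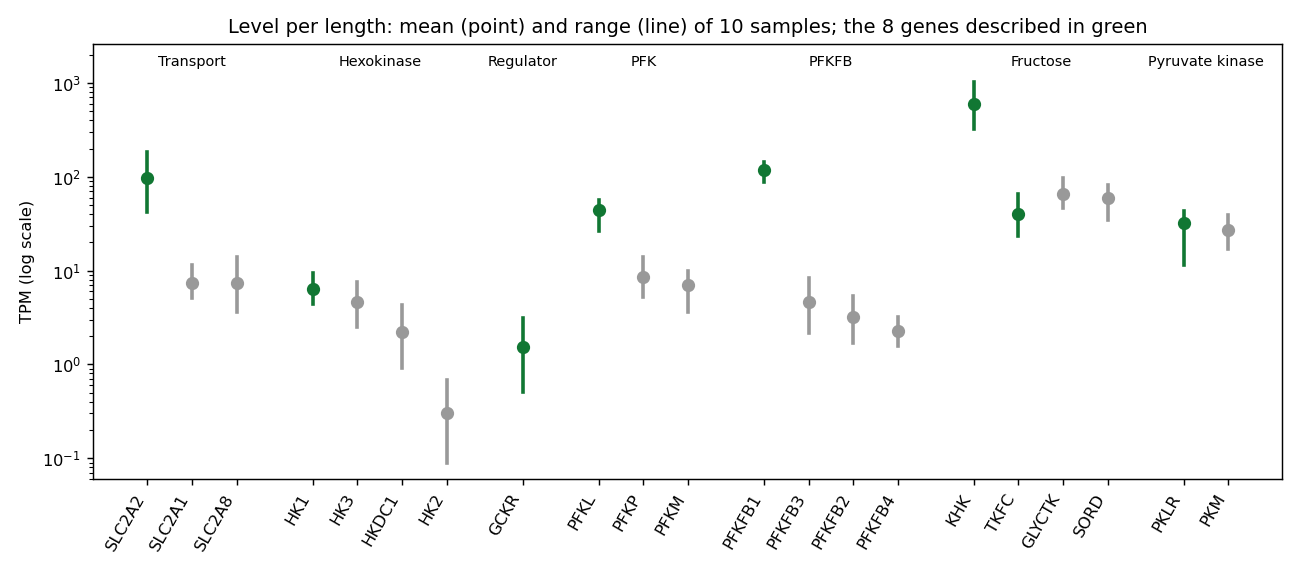
TPM (log axis) of the 8 genes (green) and of genes at the same steps (grey), with the mean of 10 samples as a point and their range as a line. KHK has the greatest level, at a mean of 594 TPM, and the liver-type genes SLC2A2, PFKL and PFKFB1 lie above their relatives, while PKLR and PKM overlap.

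Fructose use begins with KHK, ketohexokinase, which forms fructose 1-phosphate, and ends with TKFC, triokinase, which phosphorylates the glyceraldehyde released from it. KHK (Entrez gene 614868) lies on chromosome 11 from 72525752 to 72538457, on the minus strand and 349255 bases from GCKR, and TKFC (Entrez gene 512373) on chromosome 29 from 40537601 to 40549932. In CON, KHK stood at 410 CPM in replicates 1 and 4, 420 in replicate 2, 296 in replicate 3, 578 in replicate 5 and 265 in replicate 6. In MET, KHK stood at 463 CPM in replicates 1 and 3, 454 in replicate 2, 252 in replicate 4, 354 in replicate 5 and 803 in replicate 6. Both the highest and the lowest calves belonged to MET. The means of KHK were 394 ± 123 CPM for CON and 465 ± 208 CPM for MET (SD, n = 5 each), with a log2 fold change of 0.23 (standard error 0.25, 95% interval −0.31 to 0.76, adjusted p = 0.640 by edgeR) over the 12 libraries and 0.24 (adjusted p = 0.724) over the 10 samples. Without MET replicate 6, the highest calf, the log2 fold change of KHK was −0.00091.

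TKFC stood in CON at 49.9 CPM in replicates 1 and 4, 116 in replicate 2, 55.5 in replicate 3, 71.8 in replicate 5 and 69.6 in replicate 6. In MET it stood at 64.6 CPM in replicates 1 and 3, 52.2 in replicate 2, 41.7 in replicate 4, 40.4 in replicate 5 and 73.2 in replicate 6. CON replicate 2 was above every other calf and MET replicates 4 and 5 below every CON sample. TKFC averaged 72.5 ± 25.8 CPM for CON and 54.4 ± 14.3 CPM for MET (SD, n = 5 each). Its log2 fold change was −0.29 (standard error 0.22, 95% interval −0.76 to 0.17, adjusted p = 0.471 by edgeR) over the 12 libraries and −0.41 (adjusted p = 0.414) over the 10 samples. It was −0.080 without CON replicate 2 and −0.59 (adjusted p = 0.321) with both near-identical pairs left out. The direction of TKFC was thus opposite to that of KHK over the 12 libraries, and neither was past the threshold.

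Per length, KHK was the most abundant of the 8 genes, at 594 ± 218 TPM (SD, n = 10), above 98.3% of the genes tested. TKFC had 40.3 ± 12.6 TPM (SD, n = 10). SORD, sorbitol dehydrogenase, which makes fructose from sorbitol, had 59.2 ± 15.4 TPM. GLYCTK, glycerate kinase, which was added for comparison after its values were seen, had 65.7 ± 17.6 TPM. The lowest KHK sample (323 TPM) was above every sample of TKFC, SORD and GLYCTK.

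PKLR encodes the pyruvate kinase of liver and red cells, the last step of glycolysis. It is found on chromosome 3 from 15399755 to 15408994 (Entrez gene 539579, plus strand, 3053 exonic bases). In CON, PKLR had 64.2 CPM in replicates 1 and 4, 55.6 in replicate 2, 38.8 in replicate 3, 65.7 in replicate 5 and 60.2 in replicate 6. In MET, PKLR had 71.5 CPM in replicates 1 and 3, 55.8 in replicate 2, 21.4 in replicate 4, 44.1 in replicate 5 and 67.9 in replicate 6. The MET calves thus enclosed the CON calves on both sides, with MET replicate 4 the lowest of all. PKLR averaged 56.9 ± 10.9 CPM for CON and 52.2 ± 20.3 CPM for MET (SD, n = 5 each). The log2 fold change of PKLR was −0.068 (standard error 0.24, 95% interval −0.59 to 0.45, adjusted p = 0.907 by edgeR) over the 12 libraries and −0.12 (adjusted p = 0.858) over the 10 samples. Without MET replicate 4 it was 0.098. Red cells also express PKLR, and their part in these values was not tested.

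PKLR and PKM, the pyruvate kinase of most other tissues, had similar levels per length in these livers, at 32.1 ± 9.64 and 27.0 ± 7.29 TPM (SD, n = 10). Their ranges overlapped. PKLR took 26.5 to 66.9% of their sum, with the lowest share in MET replicate 4. PKM had a log2 fold change of 0.035 (adjusted p = 0.940 by edgeR over the 12 libraries).

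Ordered by mean TPM, the 8 genes ran from KHK (594) through PFKFB1 (118), SLC2A2 (97.7), PFKL (44.7), TKFC (40.3), PKLR (32.1) and HK1 (6.29) to GCKR (1.54). Neighbours from PFKFB1 down to PKLR overlapped in their ranges over the 10 samples and cannot be ordered beyond that spread. As a description without a test, the order of PFKFB1 and SLC2A2 was not the same in both diets, since SLC2A2 had 127 TPM against 112 TPM for PFKFB1 in the CON means and 68.3 TPM against 123 TPM in the MET means, and the 3 samples with more SLC2A2 than PFKFB1 were all CON. KHK exceeded PFKFB1 in every sample, PKLR exceeded HK1 in every sample and HK1 exceeded GCKR in every sample, without overlap of their ranges. SLC2A2 exceeded PFKL in 8 of the 10 samples, the exceptions being the 2 MET calves with the lowest SLC2A2.

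How the genes varied together was examined in 28 pairs over the 10 samples on log2 CPM. Of these, 15 had a positive and 13 a negative Pearson's r. No pair had a Benjamini-Hochberg adjusted p of at most 0.10, while before adjustment 5 were at or under 0.05 (two-sided permutation test). GCKR and TKFC gave r = −0.784 (permutation p = 0.00590, adjusted p = 0.165) with a Spearman's rho of −0.673 (permutation p = 0.0389, adjusted p = 0.363), and r was −0.682 after leaving out the 2 samples farthest from the median of GCKR. KHK and PKLR, an entry and an exit of the pathway, gave r = 0.677 (permutation p = 0.0322, adjusted p = 0.225) with a rho of 0.782 (permutation p = 0.0102, adjusted p = 0.286), and r was 0.562 without the 2 samples farthest from the median of KHK. HK1 and PFKFB1 gave r = −0.711 (permutation p = 0.0229, adjusted p = 0.225) with a rho of −0.709 (permutation p = 0.0263, adjusted p = 0.363), but r was −0.329 without the 2 samples farthest from the median of HK1, so Pearson's r rests on those samples. GCKR and KHK, neighbours on chromosome 11, gave r = −0.123 (permutation p = 0.734, adjusted p = 0.790) with a rho of −0.236 (permutation p = 0.513, adjusted p = 0.756), and r was −0.505 without the 2 samples farthest from the median of GCKR. After the mean of each diet was subtracted, r was −0.735 for GCKR and TKFC, 0.751 for KHK and PKLR and −0.680 for HK1 and PFKFB1. For PFKFB1 and KHK this subtraction took r from 0.688 to 0.675. For HK1 and GCKR it took r from −0.656 (permutation p = 0.0450, adjusted p = 0.252) to −0.362. No adjusted p was at most 0.10 in any of the 28 pairs after the subtraction. No correlation was computed within a diet, which has 5 samples.

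**Figure D4:**
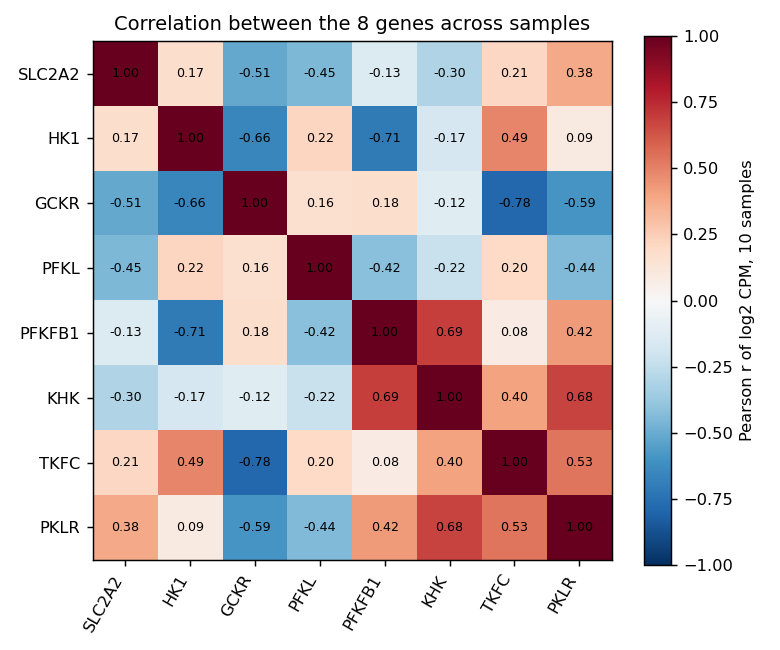
Pearson's r of log2 CPM over 10 samples for each pair of the 8 genes, from −1 (blue) to 1 (red). The most negative pair is GCKR and TKFC (−0.784) and the most positive PFKFB1 and KHK (0.688), and no pair is past an adjusted p of 0.10.

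For each of the 8 genes, the gene among the other 13211 tested with the most similar profile was sought, as a description without a test, since the highest of so many values is large in any case. These were ADCY6 for SLC2A2 (r = 0.978 over 10 samples), TAX1BP3 for TKFC (0.963), WLS for HK1 (0.956), ASPG for PFKFB1 (0.949), the gene LOC782884 for PKLR (0.947), SH2B2 for GCKR (0.944), D2HGDH for KHK (0.940) and GIMAP4 for PFKL (0.899). None of the 8 genes was nearest to another of the 8. Both values of a point come from the same sample, the points cover both diets, and the diet means were not subtracted here.

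The remaining genes of glycolysis, polyol and fructose metabolism and the carbohydrate response numbered 34, of which 30 passed the filter. Only SORD had FDR at most 0.10 over the 12 libraries, that is 1 of 30, where 4.41% of all genes did, and 0 of 30 did over the 10 samples. Of the 30, 19 had a positive and 11 a negative log2 fold change, with a median of 0.09, and an unadjusted p of at most 0.05 was seen in 6 of them over the 12 libraries, against 20.5% of all genes, and in 3 of them over the 10 samples, against 16.3% of all genes. SORD averaged 84.9 ± 15.9 CPM for CON and 59.0 ± 9.86 CPM for MET (SD, n = 5 each) and fell by 0.51 on the log2 scale (standard error 0.13, adjusted p = 0.0781 by edgeR) over the 12 libraries. Over the 10 samples its adjusted p was 0.181, and 10 of 12 fits that each left out 1 library put it above 0.10. With DESeq2 the adjusted p of SORD was 0.0145 with 12 libraries and 0.0564 with 10 samples.

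The 3 largest negative values of these genes were TXNIP (−0.62, adjusted p = 0.121), HKDC1 (−0.60, adjusted p = 0.310) and SORD, and the 3 largest positive ones ALDOC (0.66, adjusted p = 0.221), SLC2A8 (0.55, adjusted p = 0.189) and ENO1 (0.46, adjusted p = 0.218 by edgeR). Over the 10 samples ENO1 had 0.37 (adjusted p = 0.437), ALDOC 0.61 (adjusted p = 0.386), SLC2A8 0.54 (adjusted p = 0.285), TXNIP −0.54 (adjusted p = 0.286) and HKDC1 −0.73 (adjusted p = 0.3304). TXNIP encodes a thioredoxin-binding protein induced by glucose through the carbohydrate response factor MLXIPL, and averaged 181 ± 69.1 CPM for CON and 125 ± 18.7 CPM for MET (SD, n = 5 each). ALDOC is an aldolase typical of brain, and ENO1 the common enolase. PGAM2 had no read in any library, and ENO2, SLC2A5 and HK2 did not pass the filter.

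**Figure D5:**
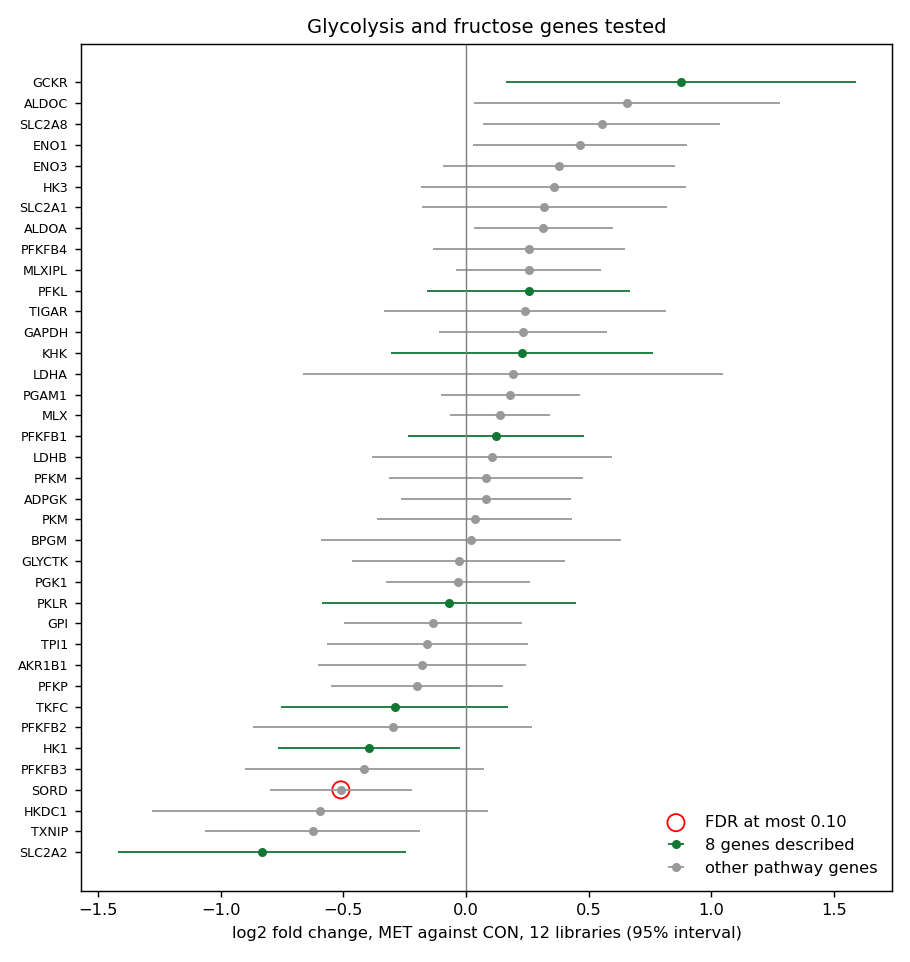
Log2 fold change of MET against CON over 12 libraries (horizontal axis) with 95% intervals for the 8 genes (green) and the 30 other pathway genes tested (grey), with FDR at most 0.10 circled. Only SORD is circled, SLC2A2 is the most negative and GCKR the most positive.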

How the data were processed

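Stranded mRNA libraries labelled as those of 12 calf livers (6 CON, 6 MET) were analysed, with the near-identical libraries handled as described above. The authors aligned single-end reads to UMD 3.1.1 with STAR 2.5.3a and deposited, per library, raw counts of reads per RefSeq gene from featureCounts 1.5.2, stranded and without normalization. Reads matching several places or genes were not counted, and no exonic base of the 8 genes is shared with an exon of another gene on the same strand. Symbols came from a RefSeq table of a later assembly by Entrez gene ID (25105 of 30336 IDs). Positions are those in the count files, whose sequences were numbered by the chromosome most of their genes have in that table. The 8 genes and all lists were chosen with earlier results of these data known. The genes named are the 8 genes, their paralogs, and from the list of other pathway genes those with FDR at most 0.10 and the 3 largest changes in each direction.

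The filter was filterByExpr of edgeR at its defaults (minimum count 10, minimum total 15). After TMM normalization, diets were compared with edgeR 4.0.16 (quasi-likelihood test, diet alone, R 4.3.3) and the Benjamini-Hochberg method, at FDR at most 0.10. A standard error is the log2 fold change divided by the square root of F. TPM used the exonic lengths in the files. Log2 CPM for correlations used a prior count of 2, with 100000 permutations. P-values over the 10 samples measure the spread between these samples. Those over the 12 libraries count both libraries of a near-identical pair, and so do not measure the spread between separate calves. Depth (8277789 to 10397604 reads) limits GCKR and HK1 most. The alternatives were RLE, upper-quartile and no factors, 2 filters, DESeq2 1.42.0, voom of limma 3.58.1, replicate blocks and a gene length correction (span 0.5). Others were each library left out, pairs summed and, chosen after seeing the data, DESeq2 over the 10 samples and both pairs left out. A robust estimation was also set, but its setting did not reach the fit, so it repeats the main one. The steps were tested on simulated data. Same-numbered libraries of the diets were checked for shared deviations.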

Additional observations from a re-analysis of the deposited data

Results flagged for a closer look

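Among 76 groups of 5 samples, from the 8 genes and the 30 other pathway genes tested, 1 sample stood apart from its group by Dixon's test, where chance flags about 1 group in 20. PFKFB2, which encodes a bifunctional enzyme of fructose 2,6-bisphosphate best known from heart, had 14.3 CPM in the CON sample of replicates 1 and 4, with the next CON sample at 8.24 CPM. The gap took up 0.756 of the range of the CON samples, above the critical value of 0.71.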

How the results depend on the processing

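Of 200 values of the 8 genes under 25 alternatives each, 193 kept their direction and their side of the threshold, 5 passed the threshold and 2 changed sign. The robust estimation among these repeated the main fit, so its values, counted with the 193, are no separate check. SLC2A2 passed it with DESeq2 over the 12 libraries and over the 10 samples and without CON replicate 5, and GCKR with DESeq2 over both. With each library left out, KHK ran from −0.00091 (without MET replicate 6) to 0.37 and PKLR from −0.17 to 0.098 (without MET replicate 4). The number of the 8 genes with FDR at most 0.10 was 0 over the 12 libraries, 2 with DESeq2 over the 12 libraries and 2 over the 10 samples, and 0 to 1 in the fits that each left out 1 library. For the 30 other pathway genes the number was 1, which became 2 with DESeq2 and 0 with the pairs summed, with both pairs left out, with library size only, without a filter and with the replicate block, and lay between 0 and 1 in the fits without 1 library. Over all genes, 583 calls became 0 with the reads of each near-identical pair summed and 0 with both pairs left out (lowest adjusted p of 0.149; 1986 genes with an unadjusted p of at most 0.05), 107 with library size only, 238 without a filter, 253 with the gene length correction, 1314 with DESeq2, and 26 to 565 without 1 library (26 without CON replicate 1, 35 without CON replicate 4, 565 without CON replicate 2, 459 without CON replicate 5 and 206 to 376 without each of the others). The cause was not tested. The replicate block gave 6 calls, all lower in MET and none of them among the 8 genes. The labels say nothing of what a replicate number shares, same-numbered libraries deviated with correlations of −0.190 to 0.148, and 0 of the 6 CON libraries correlated best with its own number, so the numbers were not treated as pairs. Depth limits GCKR most, whose 12 reads in the lowest library leave a wide counting error.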
